A study of Mus musculus with 4 samples.

Results

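Plasminogen activators, their inhibitors and the regulators of coagulation at the cell surface were measured in fibroblasts of mouse mammary tumours. The 9 genes described are Plau, Plat, Plaur, Serpine2, Serpinb2, F3, Tfpi, Tfpi2 and Thbd. They were chosen by name as a functional group from the 22456 genes of the table, with earlier results of these data known. The tumours were raised in the mammary fat pad of Balb/cAnN mice by injecting 4T1 cells, a carcinoma line that came from a Balb/c mammary gland and grows in that strain, and were taken 8 days later. In the GSK group (2 libraries) the 4T1 cells had spent 5 days in 5 µM of the compound GSK269962A before injection. In the DMSO group (2 libraries) they had spent 5 days in the solvent; per the labels, the compound was given to the cancer cells. The fibroblasts are the host cells left after magnetic beads had removed, over successive columns, whatever carried CD45, CD31, CD326 or human CD2. That fraction was not selected for a fibroblast marker and may hold any other unlabelled mesenchymal cell. Neither the age of the mice nor the number of animals behind a library is stated in the labels, and every p-value therefore rests on the spread between these libraries alone, which may be technical.

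Plasminogen circulates as an inactive precursor and is cut to plasmin by urokinase, the product of Plau, or by tissue-type plasminogen activator, the product of Plat. Plasmin dissolves fibrin and cuts matrix proteins, and serpins stop both the activators and plasmin by trapping them in a covalent complex. Coagulation runs the other way: tissue factor, the product of F3, binds factor VII and starts the cascade that ends with thrombin and fibrin, while Tfpi restrains that start and thrombomodulin, the product of Thbd, turns thrombin towards the activation of protein C. Tumour stroma is a well-known site of both systems, since leaky vessels let plasma proteins into the tissue.

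The libraries carried a fibroblast profile. All 10 fibroblast markers were measured, with Col1a1 highest at 20.51 on the authors' normalised log2 scale. The summed level of the list was 21.58 and 21.67 in GSK and 21.71 and 21.69 in DMSO, carried by Col1a1, Col1a2 and Col3a1. The single markers were less even, with 5 positive and 5 negative differences, from -0.37 for Pdpn to 0.33 for Pdgfrb. None of them passed the limma test described below. Markers of pericytes and smooth muscle ran from 8.38 for Kcnj8 to 12.52 for Rgs5, against 10.76 for Fap, the lowest fibroblast marker. Of the proteins targeted by the depletion, human CD2 was not examined. The genes for the others were low, with Epcam (CD326, epithelium) at 0.32, Pecam1 (CD31, endothelium) at 3.31 and Ptprc (CD45, leukocytes) at 3.81 on average over the libraries. Single markers of the same cell types stood higher, with Krt19 (epithelium) at 8.82, Cd3e (T cells) at 8.62, Csf1r and Ly6c2 (macrophages and monocytes) at 8.28 and 7.34 and Tek (endothelium) at 7.64. All other listed markers of these cell types lay lower. Among them were Cdh1 (epithelium) at 2.23, Cd3g and Cd4 (T cells) at -0.43 and 2.69, Adgre1 and C1qa (macrophages) at 0.79 and 2.95 and Tie1 (endothelium) at 1.70. The median difference between 2 libraries over tested genes was 0.05 within each group and 0.057 to 0.068 between groups. Read counts were not given, so the depth behind each value is unknown.

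All 9 genes were expressed well above the filter on low values, a mean of 3.32 (log2 of 10) or more, and all were tested. Per kilobase of the longest coding transcript of each gene, the level over the 4 libraries averaged 11.95 (log2) for Plat, 11.76 for Plau, 11.73 for Serpinb2, 11.30 for Serpine2, 11.19 for Tfpi2, 10.84 for Plaur, 9.47 for F3, 8.59 for Tfpi and 8.00 for Thbd. From Plat down to Tfpi2 each gene's range over the libraries overlapped that of its neighbour in this order. Plaur, F3, Tfpi and Thbd each lay wholly below the gene before it. The order of the upper genes rests on the transcript assumed: per kilobase of all annotated exons, Plau was first at 11.75, Plat the fourth at 10.64 and Serpine2 the sixth at 9.39, while F3, Tfpi and Thbd remained lowest in that order. The activators were thus among the strongly expressed genes of these cells, with 283 genes of the table at a higher normalised log2 value than Plat and 360 above Plau, without correction for length.

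Setting GSK against DMSO asks how the fibroblasts of a tumour differ when its founding cancer cells had been treated. Serpine2, a secreted serpin that inhibits thrombin, urokinase and plasmin, rose 1.66-fold, and Thbd, the thrombin receptor of the anticoagulant pathway, fell, with a level 1.41-fold lower. F3 was 1.51-fold lower and Tfpi2 1.23-fold higher, with groups that did not overlap, but neither passed the test. The activators differed little: Plau and its receptor Plaur had nearly equal means, and Plat was 1.18-fold lower without passing. In limma, with Benjamini-Hochberg adjustment over all 14548 tested genes, 1 of the 9 genes was called higher and 1 lower, where 0.151% of all tested genes were called higher and 0.131% lower (0.282% in either direction). Both GSK libraries lay above both DMSO libraries in 2 of the 9 genes and below them in 3, where 24.1% of all tested genes lay above and 24.5% below. With 5 of 9 genes free of overlap, against 48.6% of all tested genes, that share is near the background. The median difference of the 9 genes was -0.046 (log2), against -0.00074 over all tested genes, and the median size of the difference was 0.30, against 0.049. Between libraries of the same group, all but Tfpi2 and Thbd (pooled SD 0.038 and 0.034) also varied more than the median tested gene (0.041). The other pooled SDs ran from 0.086 for Plaur to 0.91 for Serpinb2. The 9 genes were chosen with earlier results known, so these comparisons with all tested genes are descriptive only. Differences on this scale appear pulled towards 0, as by a regularised logarithm, and a lower share of the cells that make a transcript cannot be told apart from less transcript per cell in bulk RNA.

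**Figure D1:**
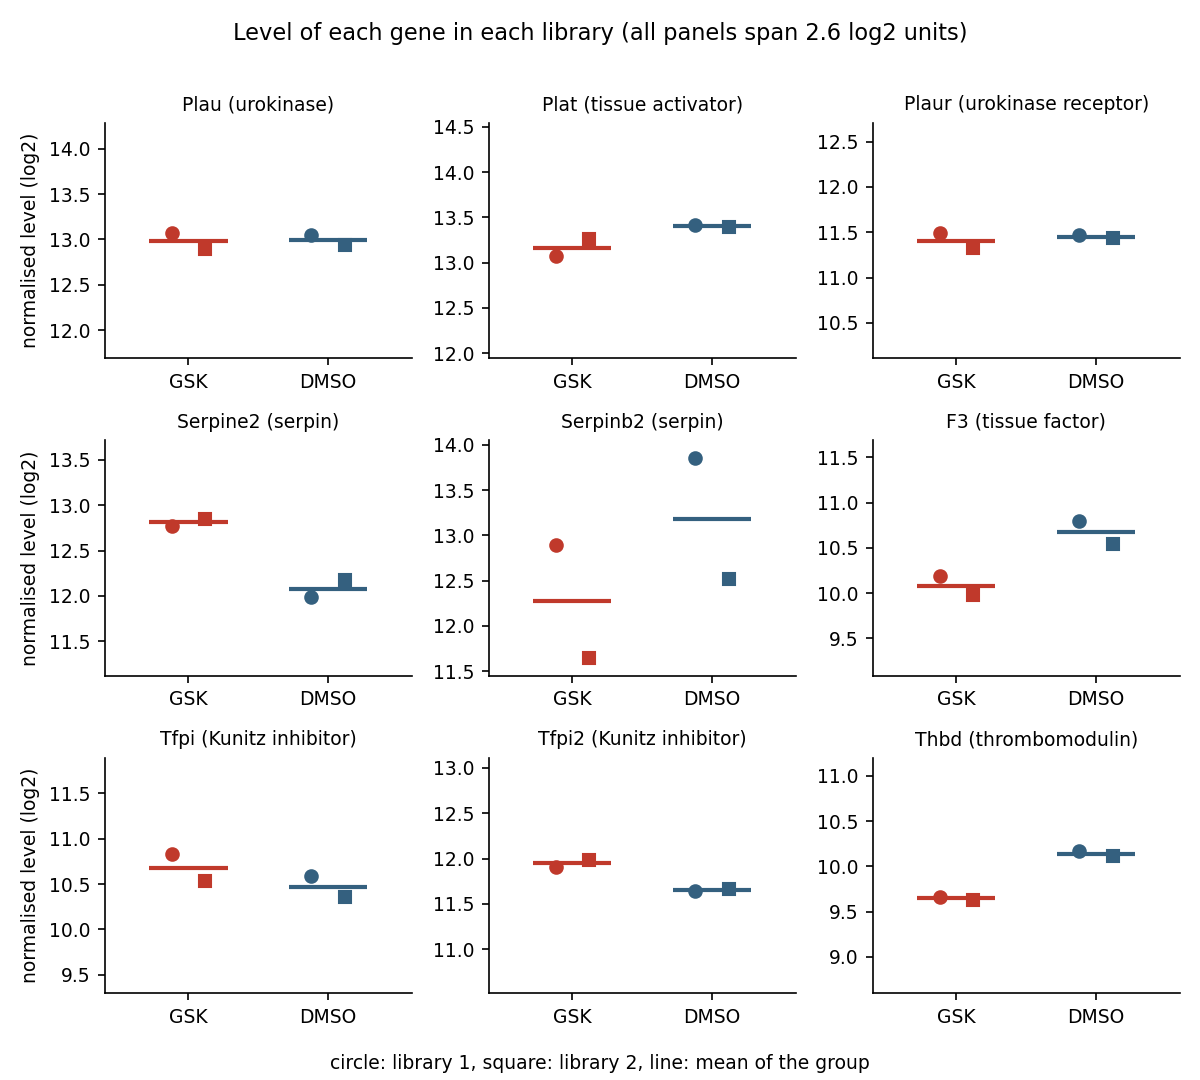
Normalised level (log2) of each of the 9 genes in the 2 GSK libraries (red) and the 2 DMSO libraries (blue), with circles for library 1, squares for library 2 and a line at the mean of the group. Serpine2 lies at 12.77 and 12.85 in GSK, above 11.99 and 12.17 in DMSO, Thbd lies lower in GSK, and the Serpinb2 groups overlap across a wide spread.

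The activators of plasminogen and their receptor come first. Plau, urokinase (ENSMUSG00000021822, GRCm38 chromosome 14, 20836660 to 20843385), had 13.08 and 12.90 (log2) in GSK libraries 1 and 2, against 13.05 and 12.94 in DMSO libraries 1 and 2. The DMSO values lie between the GSK values, and the difference was -0.0047 with a limma 95% interval of -0.19 to 0.18 (adjusted p = 0.985). Its sign is not fixed, since the difference was 0.053 after quantile normalisation. Plaur, the membrane-anchored receptor that holds urokinase at the cell surface (chromosome 7, 24462484 to 24475968), had 11.49 and 11.32 in GSK, against 11.47 and 11.44 in DMSO. Its groups overlapped, with a difference of -0.046 and an interval of -0.20 to 0.11 (limma adjusted p = 0.771).

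Plat, the tissue-type activator, known above all for dissolving clots (chromosome 8, 22757727 to 22782844), had 13.07 and 13.26 in GSK, against 13.42 and 13.40 in DMSO. Both GSK values lie below both DMSO values, by 0.14 at the closest. The difference was -0.24 ± 0.07 (SE), with an interval of -0.42 to -0.063, and did not pass over all genes (limma adjusted p = 0.192). It was -0.15 without GSK library 1, the lowest library.

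Of the 2 serpins among the 9 genes, Serpine2 separated the groups. Serpine2, also called protease nexin (ENSMUSG00000026249, chromosome 1, 79794197 to 79861180, minus strand), had 12.77 and 12.85 in GSK, against 11.99 and 12.17 in DMSO. The lower GSK library stands 0.60 above the higher DMSO library. The means were 12.81 ± 0.05 in GSK and 12.08 ± 0.13 in DMSO (SD, n = 2 each), a rise of 0.73 ± 0.07 (SE), which passed the test (limma adjusted p = 0.033). By unadjusted p it ranked 17 of the 14548 tested genes, and by size of the difference 28. The call was lost without GSK library 2 (difference 0.69, adjusted p = 0.0595) and without DMSO library 1 (0.64, adjusted p = 0.0737), and held without each of the other two (adjusted p = 0.0116 and 0.042). Markers of pericytes and smooth muscle, which the isolation did not remove, had positive differences in 6 of 8 measured genes, with a summed level of 14.33 and 14.33 in GSK and 13.92 and 14.20 in DMSO. None of the 8 passed the test. Cspg4 was at 0.49 (limma adjusted p = 0.126) and Mcam at 0.34 (adjusted p = 0.216). The negative differences were those of Kcnj8 at -0.21 (limma adjusted p = 0.192) and Abcc9 at -0.12 (adjusted p = 0.383). The part of these markers in the rise of Serpine2 was not tested.

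The genes whose profile over the 4 libraries lay nearest to that of Serpine2, by Euclidean distance between log2 values centred on each gene's mean, were Cpxm2 (distance 0.077), Pla2g7 (0.107), Col7a1 (0.13), Sparcl1 (0.162) and Wnt5a (0.171), out of 11067 genes averaging 5.64 (log2 of 50) or more. Pla2g7, an enzyme that degrades platelet-activating factor, rose by 0.82 ± 0.08 (limma adjusted p = 0.033) and Wnt5a, a secreted Wnt ligand, by 0.67 ± 0.07 (adjusted p = 0.0374). Both calls were lost without DMSO library 1 (limma adjusted p = 0.0709 for Pla2g7 and 0.111 for Wnt5a), with no filter (0.222 for each) and without a trend in the variance prior (0.0634 and 0.0655), that of Wnt5a also without GSK library 1 (0.053) and that of Pla2g7 also after quantile normalisation (0.0523). Col7a1, the collagen of anchoring fibrils, was at 0.73 ± 0.10 (limma adjusted p = 0.0543), Cpxm2, a carboxypeptidase-like protein, at 0.75 ± 0.10 (adjusted p = 0.0546) and Sparcl1, a matricellular protein, at 0.64 ± 0.11 (adjusted p = 0.0703). Without DMSO library 2 all 3 passed (limma adjusted p = 0.0437, 0.0131 and 0.0396 in that order), Col7a1 also without GSK library 1 (0.0384). These genes were picked by the same values that limma tested, so a difference like that of Serpine2 was largely fixed by the choice. Their p-values therefore lend no separate support to the rise of Serpine2. Over 4 libraries such a likeness describes these profiles only.

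Serpinb2, an inhibitor of urokinase that stays largely inside the cell (chromosome 1, 107511423 to 107535478), varied most. It had 12.90 and 11.65 in GSK, against 13.85 and 12.52 in DMSO. In both groups library 1 stands far above library 2, by 1.25 in GSK and 1.33 in DMSO, and GSK library 1 exceeds DMSO library 2, so the groups overlap. The means were 12.27 ± 0.88 in GSK and 13.18 ± 0.94 in DMSO (SD, n = 2 each). The difference of -0.91 ± 0.52 (SE) was the tenth in size of all tested genes and far from passing (limma adjusted p = 0.443, 95% interval -2.17 to 0.35). Between libraries of the same number it was -0.95 (library 1) and -0.87 (library 2), but the labels do not say that such libraries are paired. The fit with the replicate number as a block is given at the end. Only 1 of the 14548 tested genes had a larger spread between libraries of the same group: the pooled SD was 0.91 for Serpinb2, against a median of 0.041. Without single libraries the difference ran between -1.58 (without DMSO library 2) and -0.24 (without DMSO library 1), with -1.53 without GSK library 1 and -0.29 without GSK library 2. The annotation places 291 exon bases of Serpinb2 inside exons of Serpinb10 on the same strand, and the longest stretch that their transcripts share without a mismatch is 238 bases. Serpinb10 was listed at 4.17 to 4.32 in the libraries, and the 2 genes summed differed by -0.91.

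Tissue factor and its inhibitors had differences of opposite sign, none past the test. F3 (ENSMUSG00000028128, chromosome 3, 121723537 to 121735048), the membrane receptor that starts coagulation outside vessels, had 10.19 and 9.98 in GSK, against 10.80 and 10.55 in DMSO. Both GSK libraries lie below both DMSO libraries, with a gap of 0.36. The means were 10.08 ± 0.15 in GSK and 10.67 ± 0.18 in DMSO (SD, n = 2 each), a difference of -0.59 ± 0.10 (SE; 95% interval -0.83 to -0.35). It did not pass over all genes (limma adjusted p = 0.0703), though its unadjusted p was 9.52e-04, and it passed without DMSO library 2 (difference -0.71, adjusted p = 0.0254).

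Tfpi2, a matrix-bound Kunitz inhibitor that blocks plasmin and trypsin more than tissue factor (chromosome 6, 3962595 to 3988919, minus strand), had 11.91 and 11.98 in GSK, against 11.64 and 11.66 in DMSO. The groups are apart by 0.25 and each is tight. The difference of 0.30 ± 0.05 (SE; 95% interval 0.18 to 0.41) did not pass (limma adjusted p = 0.0639). Tfpi, the main inhibitor of tissue factor with factor VII and of factor X (chromosome 2, 84432855 to 84476775, minus strand), had 10.83 and 10.53 in GSK, against 10.59 and 10.36 in DMSO. GSK library 2 lies below DMSO library 1, so the groups overlap. The difference was 0.21 ± 0.12 (SE; 95% interval -0.073 to 0.49, limma adjusted p = 0.434). Leaving out GSK library 1 brought it to 0.056 and GSK library 2 to 0.36, and leaving out DMSO library 1 brought it to 0.33 and DMSO library 2 to 0.092.

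Thbd (ENSMUSG00000074743, chromosome 2, 148404466 to 148408188, minus strand) has a single exon that fills the gene. It had 9.67 and 9.63 in GSK, against 10.17 and 10.11 in DMSO. The libraries of each group nearly coincide, and the gap between the groups is 0.44. The means were 9.65 ± 0.03 in GSK and 10.14 ± 0.04 in DMSO (SD, n = 2 each), and the level fell by 0.49 (difference -0.49 ± 0.04, SE; limma adjusted p = 0.0281). By unadjusted p it ranked 13 of the tested genes. The call was lost without GSK library 2 (difference -0.47, adjusted p = 0.0538) and without DMSO library 1 (-0.46, adjusted p = 0.0876), and held without each of the other two (adjusted p = 0.0212 and 0.042). Thrombomodulin is best known from endothelium. Of 9 endothelial markers 5 passed the filter, with 3 positive and 2 negative differences, and their summed level was 8.37 and 8.46 in GSK and 8.44 and 8.51 in DMSO, with Tie1 at 1.70, Erg at 2.91, Emcn at 3.08 and Pecam1 at 3.31 under the filter. Markers of mesothelium, another known site of Thbd, summed to 10.60 and 10.41 in GSK and 10.67 and 10.62 in DMSO over the 3 genes in the table, with Wt1 at 10.07, Krt19 at 8.82 and Msln at 0.33. Epithelial markers summed to 9.03 and 8.84 in GSK and 9.21 and 9.15 in DMSO, mostly from Krt19, which is counted in both sums and differed by -0.29 (log2), and macrophage and monocyte markers to 9.11 and 8.97 in GSK and 9.23 and 9.14 in DMSO. Platelet markers summed to 7.77 and 7.82 in GSK and 7.88 and 7.90 in DMSO, with Pf4 and Gp9 under the filter. The part of these small shifts in the lower values of Thbd, F3 and Serpinb2 was not tested.

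**Figure D2:**
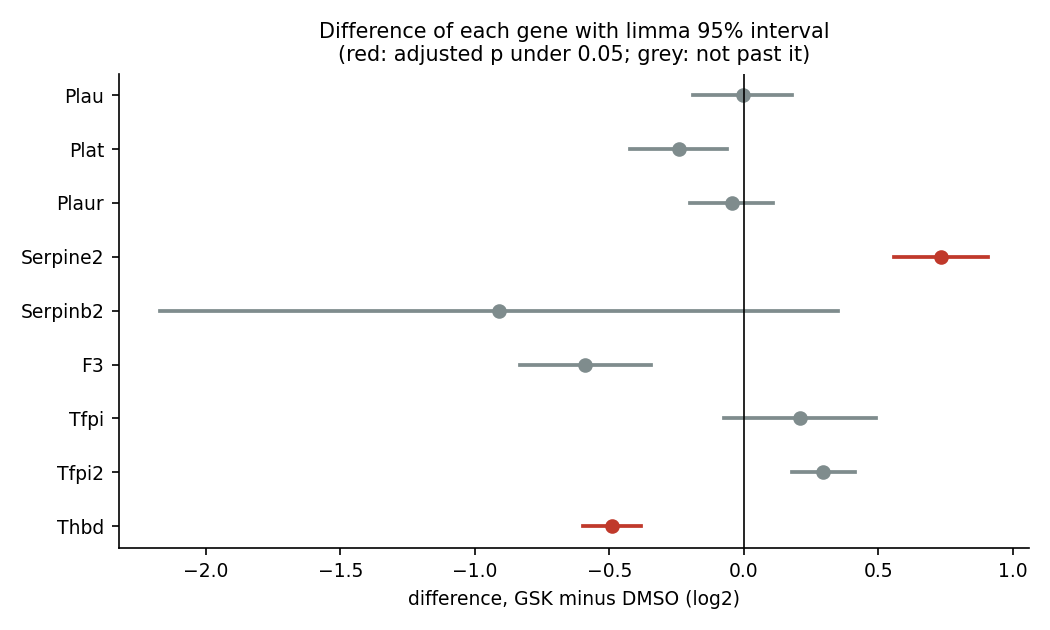
Difference of GSK minus DMSO (log2) for each of the 9 genes, with points at the estimate and lines over limma's 95% interval, red for an adjusted p under 0.05. Serpine2 at 0.73 and Thbd at -0.49 are the called genes, and the interval of Serpinb2 runs from -2.17 to 0.35.

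Promoters are shown for Serpine2, F3 and Serpinb2, the genes with the largest differences in size among the 9. RefSeq's promoter table (GRCm38.p6) matched 6 of the 9 genes, with no entry for Plau, Plat and Thbd. The 250 bases before the start in that table are given 5′ to 3′ on the gene's strand, for Serpine2 chr1:79858666-79858915 (minus strand), for F3 chr3:121723287-121723536 and for Serpinb2 chr1:107511173-107511422 (both plus strand). The windows of F3 and Serpinb2 end at the base before the annotated gene, while that of Serpine2 lies inside the annotated gene, which reaches 79861180, and so is not upstream of all its transcripts. Capitals mark matches, on either strand, to AP-1 (TGANTCA), the GC box (GGGCGG) or the TATA box (TATAAA).
Serpine2: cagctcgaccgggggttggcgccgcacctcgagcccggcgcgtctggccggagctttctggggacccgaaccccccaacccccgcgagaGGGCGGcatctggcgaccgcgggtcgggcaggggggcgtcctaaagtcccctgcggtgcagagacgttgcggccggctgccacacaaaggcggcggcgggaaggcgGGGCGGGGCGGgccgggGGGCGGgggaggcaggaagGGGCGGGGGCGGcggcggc
F3: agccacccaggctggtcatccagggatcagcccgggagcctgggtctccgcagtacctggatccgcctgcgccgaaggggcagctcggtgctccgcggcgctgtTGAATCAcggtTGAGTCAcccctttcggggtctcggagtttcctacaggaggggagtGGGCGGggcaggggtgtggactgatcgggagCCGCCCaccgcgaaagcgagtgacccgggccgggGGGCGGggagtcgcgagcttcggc
Serpinb2: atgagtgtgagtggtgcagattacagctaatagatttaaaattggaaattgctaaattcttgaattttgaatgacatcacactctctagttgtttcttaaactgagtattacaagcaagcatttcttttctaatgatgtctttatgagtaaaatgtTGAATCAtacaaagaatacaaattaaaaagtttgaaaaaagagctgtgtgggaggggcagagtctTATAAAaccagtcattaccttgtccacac

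The 3 promoters differ in kind. That of Serpine2, the gene that rose, is 78.8% G and C and holds 6 GC boxes, neighbouring boxes partly sharing a base, and no AP-1 or TATA match. That of F3 is 70% G and C, with 3 GC boxes and 2 AP-1 matches 146 to 129 bases before the start. That of Serpinb2 is 32.4% G and C, with 1 AP-1 match 94 bases and a TATA box 29 bases before the start. Among the 6 promoters, AP-1 matched in 3 (F3, Serpinb2 and Plaur, 1 match in the last), where 6.75% of all 32851 promoter windows of the same length hold it. The GC box matched in 4 (32.7% of all windows) and the TATA box in 2, Serpinb2 and Tfpi (12.4%). None of the 6 held TGACGTCA, the cAMP response element (1.55% of all windows), CACGTG, an E-box (6.02%), GGAATG, the TEAD motif (12.6%), GCGTGGGCG, the EGR motif (0.536%), the NF-kappaB consensus (3.9%) or the CArG box (1.47%), searched on both strands. A match describes these letters only.

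**Figure D3:**
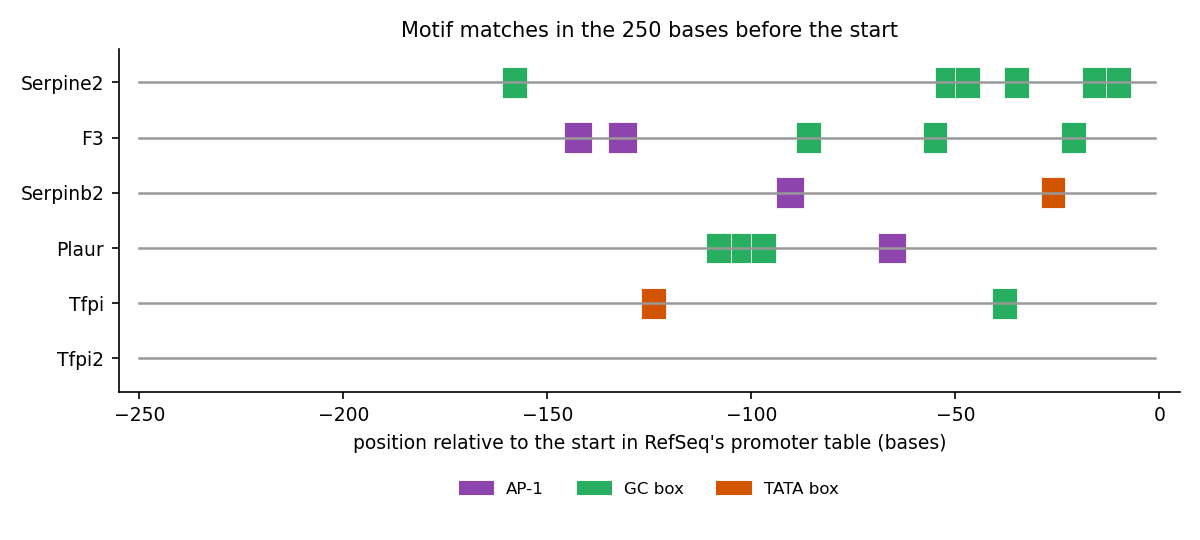
Matches to the AP-1, GC box and TATA box motifs in the 250 bases before the start of 6 genes, by distance from the start in RefSeq's promoter table. Serpine2 has 6 GC boxes, F3 has 2 AP-1 matches and 3 GC boxes, and Tfpi2 has no match.

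Ratios within a library set opposing genes beside each other, as the difference of their log2 levels per kilobase of the longest coding transcript. The pairs were chosen after the values were seen, and the ratios repeat the differences of the genes in them and were not tested. Plau over Serpine2 was 0.22 and -0.035 in GSK, against 0.98 and 0.68 in DMSO. Plat over Serpine2 was 0.10 and 0.22 in GSK, against 1.24 and 1.03 in DMSO. The level of these ratios depends on the length assumed, the difference between the groups does not: per kilobase of all annotated exons, Plau averaged 11.74 (log2) and Serpine2 9.76 in GSK, against 11.75 and 9.03 in DMSO. Over the other serpin, Serpinb2, Plau was at -0.049 and 1.02 in GSK, against -1.03 and 0.19 in DMSO, with overlapping groups and a difference of 0.91 in the other direction. F3 over Tfpi was 0.44 and 0.53 in GSK, against 1.29 and 1.28 in DMSO, and F3 over Tfpi2 was -2.02 and -2.30 in GSK, against -1.14 and -1.41 in DMSO. These ratios of tissue factor to its inhibitors were lower in both GSK libraries than in both DMSO libraries. Plau over its receptor Plaur, at 0.95 and 0.94 in GSK and 0.94 and 0.86 in DMSO, overlapped between the groups. So did Thbd over F3, at -1.51 and -1.34 in GSK and -1.62 and -1.43 in DMSO, a pair in which both genes had lower values in GSK.

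**Figure D4:**
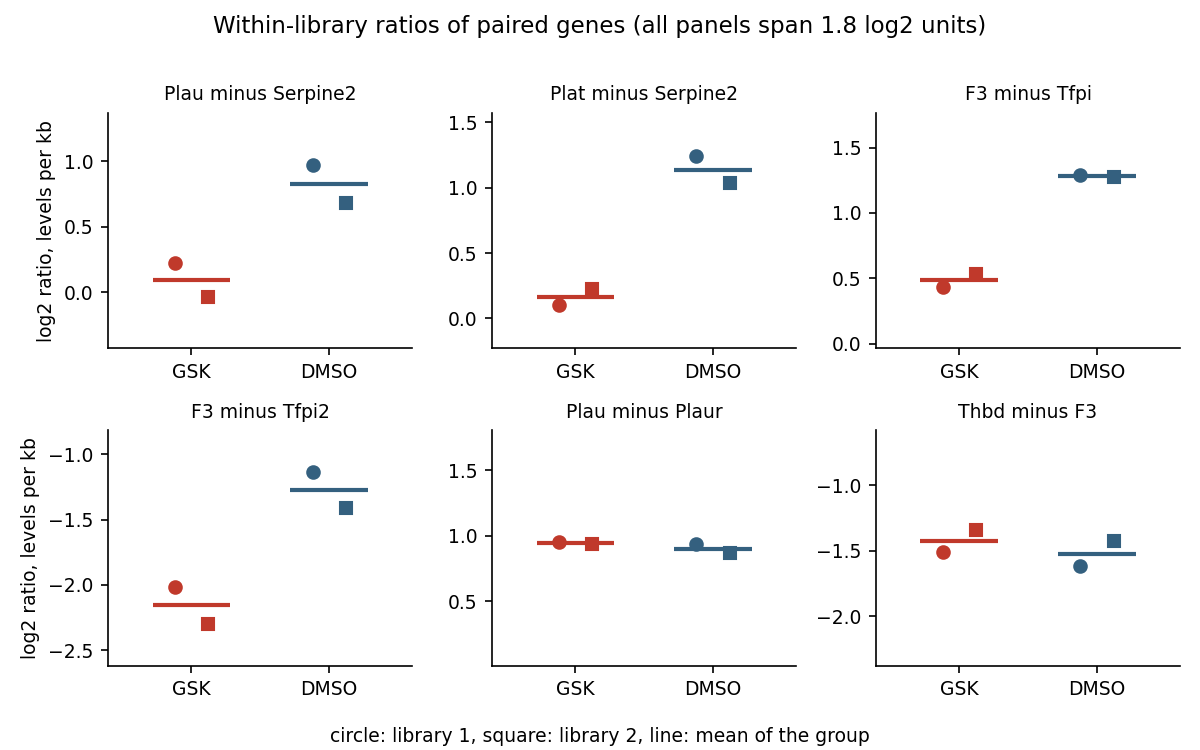
Ratio (log2) of the levels per kilobase of paired genes within each library, GSK in red and DMSO in blue, with circles for library 1, squares for library 2 and a line at the mean of the group. Activator over Serpine2 and F3 over Tfpi or Tfpi2 are lower in both GSK libraries, while Plau over Plaur and Thbd over F3 overlap. Not plotted are Plau over Serpinb2, which overlapped and differed by 0.91 in the other direction, and Plat over Plau, which differed by -0.24 and was lower in both GSK libraries.

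Other genes of these systems were read from lists of the plasminogen system, of coagulation and of other serpins and small protease inhibitors, 74 genes in all, of which 64 were in the table and 43 passed the filter. None of the 43 was called by limma over all genes, and 11 had an unadjusted p under 0.05, 5 higher and 6 lower in GSK, where 16% of all tested genes had one. The median difference was 0.0048 (log2), against -0.00074 over all tested genes, and the median size was 0.10, against 0.049. Several precursors of these systems lay under the filter and were not tested. Plg, plasminogen, was at 0.57 to 0.60 in the libraries. F2, prothrombin, averaged -0.99, just above the lowest value of the table. The fibrinogen chains Fga and Fgg averaged 0.02 and 1.45, and F7, factor VII, averaged 1.68.

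In the plasminogen list 12 of 21 genes in the table were tested, and none passed. Anxa2 and S100a10 encode the 2 chains of a surface complex that binds plasminogen and its tissue-type activator. Anxa2 had 13.74 and 13.65 in GSK, against 14.11 and 13.87 in DMSO (difference -0.30 ± 0.09, SE; limma adjusted p = 0.192). S100a10 had 11.34 and 11.26 in GSK, against 11.72 and 11.44 in DMSO (-0.28 ± 0.09, adjusted p = 0.213). Both chains thus had lower values in both GSK libraries without passing. Without DMSO library 1, the highest, the difference was -0.18 for Anxa2 and -0.14 for S100a10, and without DMSO library 2 S100a10 passed (-0.42, limma adjusted p = 0.048). Vldlr, an uptake receptor for protease and serpin complexes, was at -0.17 ± 0.06 (limma adjusted p = 0.223), and A2m, a broad protease trap, at 0.30 ± 0.13 (adjusted p = 0.325). A2m was at 0.092 without DMSO library 1 and passed without DMSO library 2 (0.50, limma adjusted p = 0.0314), and Vldlr was at -0.11 without DMSO library 1.

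In the coagulation list 17 of 26 genes in the table were tested, and none passed. Procr, the receptor that presents protein C to thrombin bound on thrombomodulin, came nearest, with 8.98 and 8.90 in GSK, against 9.28 and 9.21 in DMSO (difference -0.31 ± 0.05, SE; limma adjusted p = 0.0654). The groups did not overlap, as for Thbd, its partner in that pathway, and as for 48.6% of all tested genes. F2r, the main thrombin receptor of fibroblasts, had 11.04 and 11.15 in GSK, against 10.89 and 10.97 in DMSO (0.16 ± 0.06, adjusted p = 0.233). F5, the cofactor of factor X, was at -0.16 ± 0.05 (limma adjusted p = 0.221), and F2rl3, another protease-activated receptor, at 0.11 ± 0.04 (adjusted p = 0.26).

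Among other serpins and small inhibitors 14 of 17 were tested, and none passed, so Serpine2 was the only serpin called among those listed. Serpina3g, an inhibitor of cathepsins, was at 0.26 ± 0.07 (limma adjusted p = 0.18), and Serping1, which inhibits the complement protease C1s and contact factors, at 0.18 ± 0.06 (adjusted p = 0.249). Slpi, an inhibitor of neutrophil elastase, was at -0.35 ± 0.11 (limma adjusted p = 0.192), and Serpinb6a, an intracellular serpin, at -0.21 ± 0.09 (adjusted p = 0.328). Slpi was at -0.18 without DMSO library 1 and passed without DMSO library 2 (-0.52, limma adjusted p = 0.0234), Serpinb6a was at -0.11 without GSK library 2 and -0.12 without DMSO library 1, and Serpina3g at 0.15 without GSK library 1.

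**Figure D5:**
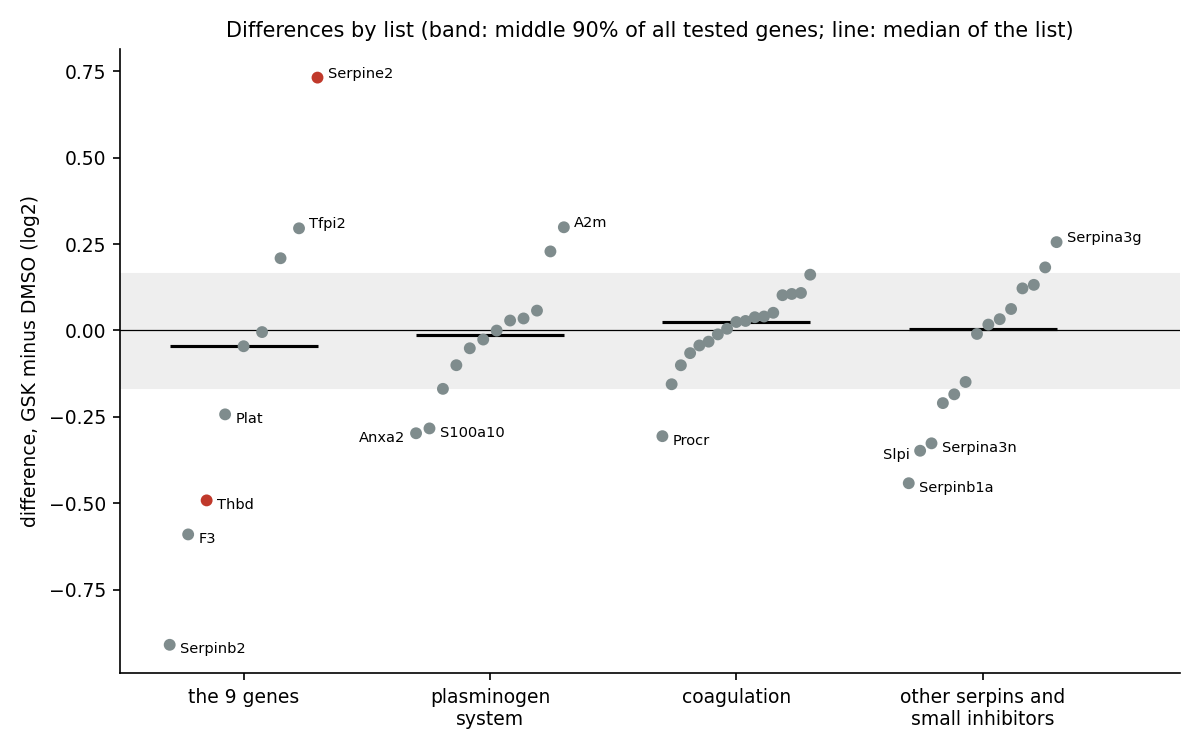
Difference of GSK minus DMSO (log2) for the 9 genes and for the tested genes of 3 further lists, red for an adjusted p under 0.05, with a line at each list's median and a band over the middle 90% of all tested genes (-0.17 to 0.16). Serpine2 and Thbd are the called genes in the plot, and Procr lies lowest in the coagulation list at -0.31.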

How the data were processed

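RNA-seq of tumour fibroblasts gave 4 libraries, 2 GSK and 2 DMSO, grouped by title. The authors deposited normalised values that read as log2, with a column for each library. RSEM 1.2.29, Bowtie2, DESeq2 1.12.4, mm10 and GRCh38 are named in the submitters' processing notes with no role for any of them. The transformation is not stated, nor the annotation. The unit was taken from the range of the values (to 20.58) and the near-equal library medians (6.15 to 6.16).

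Symbols, coordinates and lengths came from GENCODE M21 (GRCm38, the assembly also called mm10), where 22357 of 22456 identifiers matched. limma 3.58.1 (R 4.3.3) was fitted to the deposited values, with no pseudocount, over the 14548 genes that average log2 of 10 or more: group as the only term, a variance prior following the mean, two-sided p, Benjamini-Hochberg adjustment over all tested genes, threshold 0.05. The procedure was tested on simulated data with normal noise, independent in each library, and with variances drawn from limma's own fitted prior. The simulated data thus follow the model that limma assumes, and leave out the correlation between libraries of the same number given below. They cannot show how well that model suits the measured values. SE is limma's moderated standard error. Transcripts of the 9 genes were aligned with blastn 2.17.0 (at least 98% identity over 200 bases) to find shared sequence.

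The genes and lists were chosen with earlier results of these data known, and the lists need not be complete: 10 listed genes were not analysed here. The rule named all 9 genes, the 4 genes of each other list with the smallest p, and the 5 profiles nearest to Serpine2, leaving out predicted genes and pseudogenes. Plg, F2, Fga, Fgg, F7 and the marker genes given with values were chosen after their values were seen. Alternatives were other filters, scalings and variance priors, the replicate number as a block and each library left out.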

Additional observations from a re-analysis of the deposited data

How the results depend on the processing

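The number of called genes, 41, moved with most settings: 1 with no filter, 23 after quantile normalisation, 126 after median centring, 34 with a filter at a mean of 50, 138 with a robust prior and 11 when the variance prior ignored the mean. Without single libraries it ran between 7 (without DMSO library 1) and 194 (without DMSO library 2). Of the 9 genes, 2 were called; none was with no filter (0), none with a prior without trend (0) and 1 after quantile normalisation, and 0 to 3 without single libraries. Serpine2 missed the threshold after quantile normalisation (adjusted p = 0.0611), without trend (0.0634) and with no filter (0.222), and Thbd without trend (0.0516) and with no filter (0.222); over all 11 alternatives their adjusted p ran between 1.4e-04 and 0.222 and between 3.78e-04 and 0.222. With no filter, 22456 genes were tested and the variance prior took in the low genes. The cause of the change in calls was not tested for this or any other setting. No other listed gene was called under other filters, scalings or priors, and 0 to 5 were without single libraries (5 without DMSO library 2). The sign turned for Plau after quantile normalisation (0.053), and without single libraries Plau ran between -0.095 and 0.085 and Plaur between -0.13 and 0.039, none past the threshold.

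The labels do not say that libraries of the same number share an animal, litter or day. Their deviations from the group means correlated at 0.43 over 14548 genes, which with 2 pairs does not establish a pairing. With the replicate number as a block, limma called 1374 genes, 7 of the 9 genes (all but Plau and Plaur; 3 higher and 4 lower) and 11 of the other listed genes. The difference of Serpinb2 was then -0.91 with an adjusted p of 8.72e-05, within a range of 8.72e-05 to 0.914 over all alternatives; the ranges were 1.67e-04 to 0.265 for F3, 0.0129 to 0.6 for S100a10, 0.0307 to 0.768 for A2m, 0.0234 to 0.48 for Slpi, 8.44e-05 to 0.222 for Pla2g7, 0.00113 to 0.222 for Wnt5a, 2.68e-04 to 0.222 for Col7a1, 1.67e-04 to 0.222 for Cpxm2 and 1.54e-04 to 0.264 for Sparcl1. The fit leaves 1 residual degree of freedom. In fits without 1 library, the lone library is assumed to vary like the other group.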
